A study of Mus musculus with 48 samples.

Results

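The expression of 8 mast cell genes was examined in the bulk RNA-seq libraries of mouse subcutaneous white adipose tissue (sWAT): the receptor genes Mrgprb1 and Mrgprb2, the granule protease genes Cma1, Tpsb2, Cpa3 and Mcpt4, the growth factor receptor gene Kit, and Hdc, which encodes the enzyme that makes histamine. They are 8 of the 54532 genes listed in the count table, and all 8 were among the 19977 genes that passed the filter on low counts. The genes were chosen by name, with the strong variation of the Mrgprb genes between libraries already known, so that the spread between libraries is described here without a test.

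The libraries came from the inguinal depot of male mice 8 months old that were fed either ad-lib or twice-a-night (TAN), with food given in a pair of meal windows in the dark phase. The labels give the strain as C57BL/6, and the paper names it C57BL/6J. There were 4 libraries of each diet at each of 6 times of day, 48 in all, and no genotype, transgene or drug distinguished the groups. Each library is labelled with its own number within a diet and time, and nothing ties equal numbers to the same mice or cages. Each is taken as a separate sample, so that p-values measure the spread between these libraries. The design text of the series names a stromal vascular fraction whereas the paper describes whole sWAT. Summed over 8 adipocyte marker genes, expression was 4659 to 46187 CPM (counts as a share of the library total, scaled by TMM factors), so that adipocyte transcripts were present in all 48 libraries. Total counts ranged from 15636378 to 29913310 and genes with at least 1 count from 15271 to 23979. Times are those of the sample labels and the count table. A table of the paper lists each of the 48 libraries 12 h apart from these labels, which leaves the animals of each group the same and only changes its clock time.

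Mast cells are resident immune cells that mature in the tissue and store preformed mediators in granules. Connective tissue mast cells, the kind known in skin and around vessels and nerves, hold chymases, tryptase, carboxypeptidase and histamine bound to heparin, need Kit signalling to survive, and can be triggered through the high-affinity IgE receptor or, in mice, through the receptor Mrgprb2. Mucosal mast cells instead use the proteases Mcpt1 and Mcpt2, and basophils use Mcpt8. In adipose tissue mast cells lie among the stromal cells.

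Mrgprb1 (ENSMUSG00000070547, chr7:48444113-48456342) and Mrgprb2 (ENSMUSG00000050425, chr7:48550965-48558086) lie 94.6 kb apart on the minus strand of GRCm38. Cma1 (ENSMUSG00000022225, chr14:55941451-55944675) and Mcpt4 (ENSMUSG00000061068, chr14:56059629-56062313) lie 115 kb apart in the cluster of chymase genes. Tpsb2 (ENSMUSG00000033825) is at chr17:25366550-25368094, Cpa3 (ENSMUSG00000001865) at chr3:20215620-20242181, Kit (ENSMUSG00000005672) at chr5:75574916-75656722 and Hdc (ENSMUSG00000027360) at chr2:126593667-126619299. Reads could be shared with near-identical genes in only a few places. Of the 50-base stretches of their transcripts, 0% were found in another gene for Mrgprb1, Mrgprb2, Tpsb2, Cpa3 and Kit, 5.38% for Cma1, 5.48% for Mcpt4 and 0.141% for Hdc. The only annotated gene within a member was Mir7007 in Cpa3, with 221 counts against 28566.

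The sequences just before the transcription start are shown for the 2 receptor genes and 3 of the proteases because these genes varied together across the libraries. Each is the 250 bases before the start of the gene in RefSeq on GRCm38.p6, printed 5′ to 3′ in the direction of transcription. Capitals mark the core that GATA factors bind, searched on either strand as AGATAA or AGATAG or TGATAA or TGATAG. The factors GATA2 and GATA1 are known regulators of mast cell genes.

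Mrgprb1 (chr7:48456343-48456592, minus strand): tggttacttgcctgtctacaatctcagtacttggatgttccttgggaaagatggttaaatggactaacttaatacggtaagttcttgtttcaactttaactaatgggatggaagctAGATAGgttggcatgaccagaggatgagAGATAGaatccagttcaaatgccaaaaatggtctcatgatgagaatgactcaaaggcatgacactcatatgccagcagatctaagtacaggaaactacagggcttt
Mrgprb2 (chr7:48558087-48558336, minus strand): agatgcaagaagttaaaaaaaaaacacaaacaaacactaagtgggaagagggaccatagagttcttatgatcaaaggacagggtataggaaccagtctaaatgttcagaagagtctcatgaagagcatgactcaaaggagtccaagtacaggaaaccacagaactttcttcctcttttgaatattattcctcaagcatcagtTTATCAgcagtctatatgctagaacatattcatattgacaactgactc
Cma1 (chr14:55944676-55944925, minus strand): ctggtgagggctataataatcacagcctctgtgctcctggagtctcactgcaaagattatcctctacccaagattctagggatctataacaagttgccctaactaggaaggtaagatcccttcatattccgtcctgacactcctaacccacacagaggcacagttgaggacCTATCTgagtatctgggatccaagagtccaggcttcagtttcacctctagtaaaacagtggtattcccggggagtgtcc
Cpa3 (chr3:20242182-20242431, minus strand): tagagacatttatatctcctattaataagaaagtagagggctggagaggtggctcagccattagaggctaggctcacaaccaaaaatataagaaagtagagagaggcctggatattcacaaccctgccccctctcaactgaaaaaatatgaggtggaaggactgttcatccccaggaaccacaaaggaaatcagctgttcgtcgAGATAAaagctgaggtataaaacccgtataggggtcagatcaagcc
Mcpt4 (chr14:56062311-56062560, minus strand): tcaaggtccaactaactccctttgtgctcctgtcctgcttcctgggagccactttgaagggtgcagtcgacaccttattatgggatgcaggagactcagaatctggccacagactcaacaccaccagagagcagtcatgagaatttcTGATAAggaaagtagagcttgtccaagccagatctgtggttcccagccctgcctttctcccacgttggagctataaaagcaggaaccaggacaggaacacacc

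These letters lay 106 and 134 bases before the start of Mrgprb1, 48 before Mrgprb2, 79 before Cma1, 46 before Cpa3 and 103 before Mcpt4, counted from the start to the first letter. In all, 6 of the 7 members with an entry in the RefSeq table held at least 1 of the 4 forms in this window, Hdc being the sixth (221 bases before its start) and Kit the one without. Tpsb2 had no entry. Among all 32851 windows of this length in the table, 26.5% held one. These windows were not matched for base composition, and an enrichment was not tested. G and C made up 37.2% to 51.2% of the member windows with a match and 70.8% of those of Kit. The narrower form AGATAA alone was in 1 of the 7 matched members and in 9.99% of all windows, and the E-box letters CACATG or CATGTG, which MITF binds, were in 0 of the 7 and in 12.3% of all windows. Factor binding was not measured, and a match of letters is not a binding site. The wider set of letters was taken after AGATAA alone had been searched.

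Compared per length, with the authors' deposited mean FPKM (fragments per kilobase of transcript, scaled to sequencing depth) of each diet and time, Mcpt4 was the most highly expressed of the 8 genes, at 31.5 to 87.3 FPKM over the 12 groups. Cma1 and Tpsb2 followed with 14.4 to 38.7 and 13.5 to 38.8 FPKM, and Cpa3 with 7.84 to 25.9 FPKM. The receptor genes were far lower, with Mrgprb1 at 0.873 to 3.03, Kit at 1.12 to 2.84 and Mrgprb2 at 0.543 to 1.43 FPKM, and Hdc was lowest at 0.164 to 0.555 FPKM. The granule proteases thus stood above the receptors in each of the 12 groups.

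Other defining mast cell transcripts were present as well. Fcer1a, the IgE-binding chain of the high-affinity IgE receptor, had a count in 24 of 24 ad-lib and 19 of 24 TAN libraries, and Ms4a2, its beta chain, in 23 and 20. Gata2 had a count in all 48. The mucosal protease genes Mcpt1 and Mcpt2 had 18 and 140 counts over all 48 libraries, and the basophil protease gene Mcpt8 had 18, against 73500 for Mcpt4. The defining transcripts of connective tissue mast cells were thus present, and those of the mucosal kind were near 0. In these bulk libraries, fewer mast cells and less RNA of these genes per mast cell cannot be told apart.

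Expression of the members varied widely between libraries. Over the 48 libraries Mrgprb1 ran from 0 to 20.8 CPM with a median of 8.84, and Mrgprb2 from 0 to 7.88 with a median of 1.92. Mrgprb1 had no count in 2 libraries and Mrgprb2 in 4, and against a floor of 3 counts in the lowest library the highest was at least 137-fold and at least 40.1-fold higher. The proteases, which had counts in every library, spread over 53.1-fold for Mcpt4 (3.94 to 209 CPM, median 71.0), 45.1-fold for Tpsb2 (1.87 to 84.2, median 30.7), 38.1-fold for Cma1 (2.13 to 81.4, median 28.7) and 19.1-fold for Cpa3 (3.80 to 72.6, median 27.9). Kit spread the least, 11-fold from 3.44 to 37.8 CPM with a median of 19.6. Hdc had a maximum of 4.47 CPM, a median of 1.90 and no count in 3 libraries.

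Most of this spread lay within groups of the same diet and time. The SD of log2 CPM over all libraries was 1.70 for Mrgprb1, and within groups it was 1.61. For Mcpt4 it was 1.18 overall and 1.11 within groups, for Cpa3 1.05 and 0.89, and for Kit 0.73 and 0.61. The biological coefficient of variation that edgeR fitted was 0.861 for Mrgprb1 and 0.679 for Mcpt4, above that of 94.8% and 96.1% of the genes nearest in mean level. For Kit it was 0.392 and above that of 73.0%, and for Hdc 0.741 and above that of 60.4%.

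**Figure D1:**
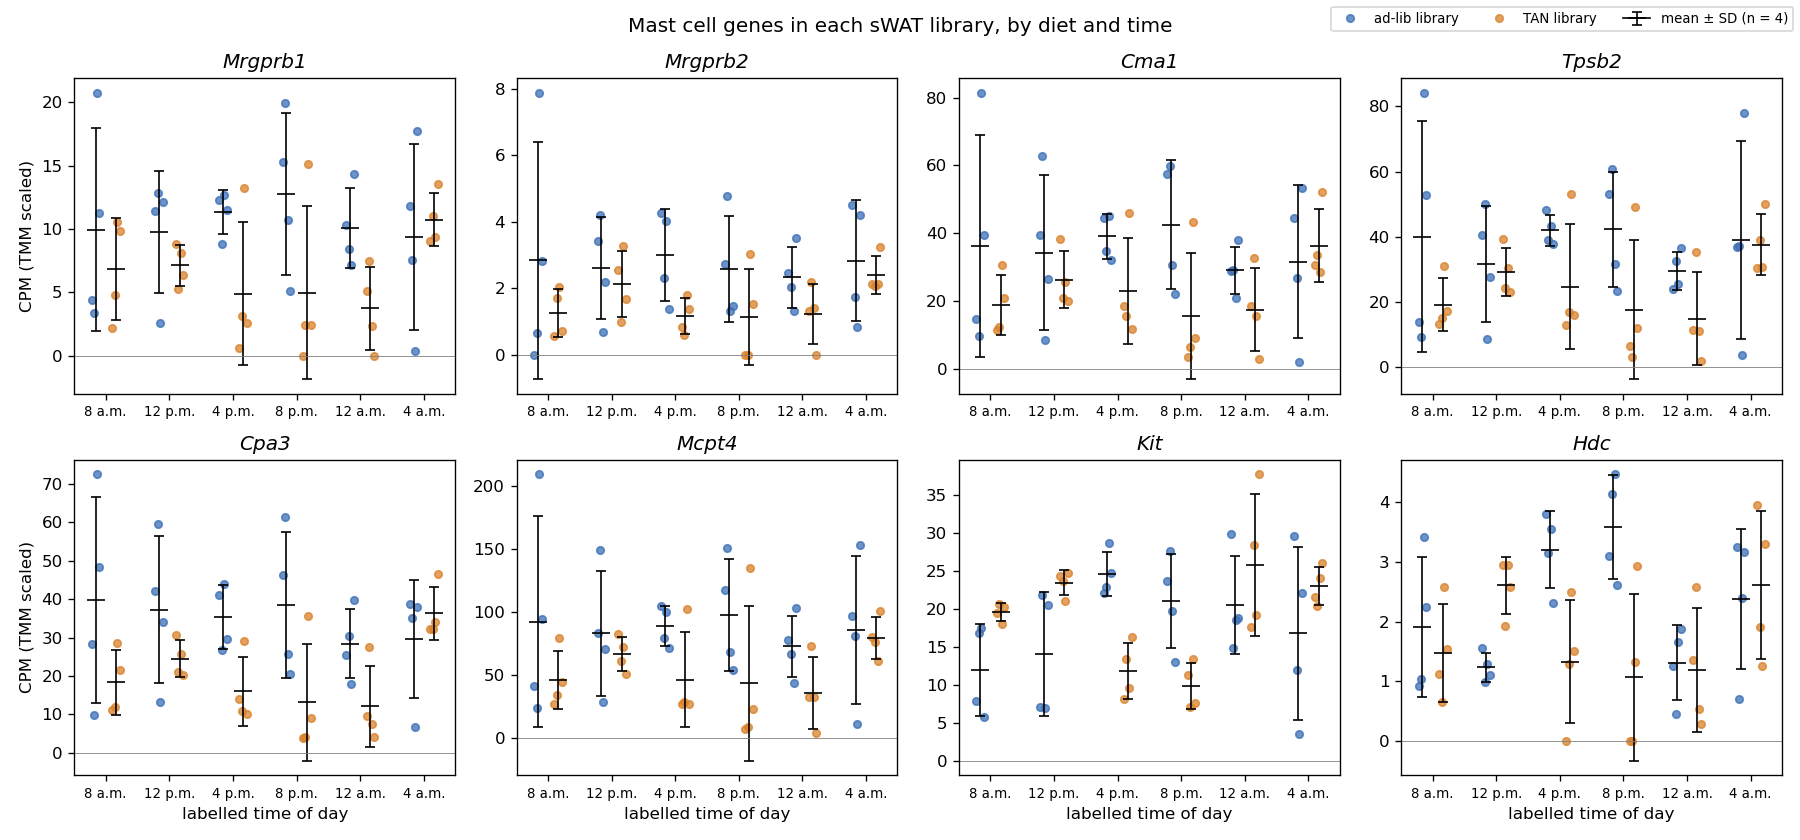
CPM of the 8 mast cell genes in each library (points, ad-lib in blue and TAN in orange) by labelled time of day, with the mean and SD of the 4 libraries of each group in black, on linear axes. The ad-lib libraries reached the highest levels of 7 of the genes, the TAN libraries of Kit, and single libraries stood far above or below the rest of their group, such as 135 CPM of Mcpt4 in a TAN library at 8:00 p.m. beside 7.49, 9.30 and 22.9 CPM in the others.

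Single libraries set both ends of the range. Ad-lib replicate 3 at 8:00 a.m. was highest for 6 genes, with 209 CPM of Mcpt4, 84.2 of Tpsb2, 81.4 of Cma1, 72.6 of Cpa3, 20.8 of Mrgprb1 and 7.88 of Mrgprb2. Its own group held 41.5, 24.3 and 94.2 CPM of Mcpt4 in the other libraries. TAN replicate 4 at 12:00 a.m. held 3.94 CPM of Mcpt4, 1.87 of Tpsb2, 2.91 of Cma1 and 3.94 of Cpa3 and no count of either Mrgprb gene, while its Kit, at 37.8 CPM, was the highest of all 48 libraries. The libraries lowest in protease expression otherwise were TAN replicates 1 and 2 at 8:00 p.m. and ad-lib replicate 3 at 4:00 a.m.

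Over the 48 libraries the 4 protease genes varied together. Pearson's r of log2 CPM between them was 0.93 to 0.97 in the 6 pairs. The ratio of Tpsb2 to Mcpt4 counts had a median of 0.454 and an SD of 0.29 on the log2 scale, from 0.299 to 0.851, while each gene alone varied over 45.1-fold or more. The ratio of Cpa3 to Mcpt4 was less even, from 0.230 to 1.0 with an SD of 0.36. That of Cma1 to Tpsb2 ran from 0.540 to 2.04 with an SD of 0.35. Mrgprb1 and Mrgprb2 correlated with the proteases at 0.78 to 0.92 in 8 pairs and with each other at 0.77. Hdc correlated with these 6 genes at 0.56 to 0.68 and Kit at 0.30 to 0.41. The ratio of Kit to Mcpt4 ran from 0.0605 to 9.58, with an SD of 1.17 on the log2 scale. These correlations are across 48 libraries that share a protocol, a scaling and in part the same extreme libraries, and are given as a description.

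**Figure D2:**
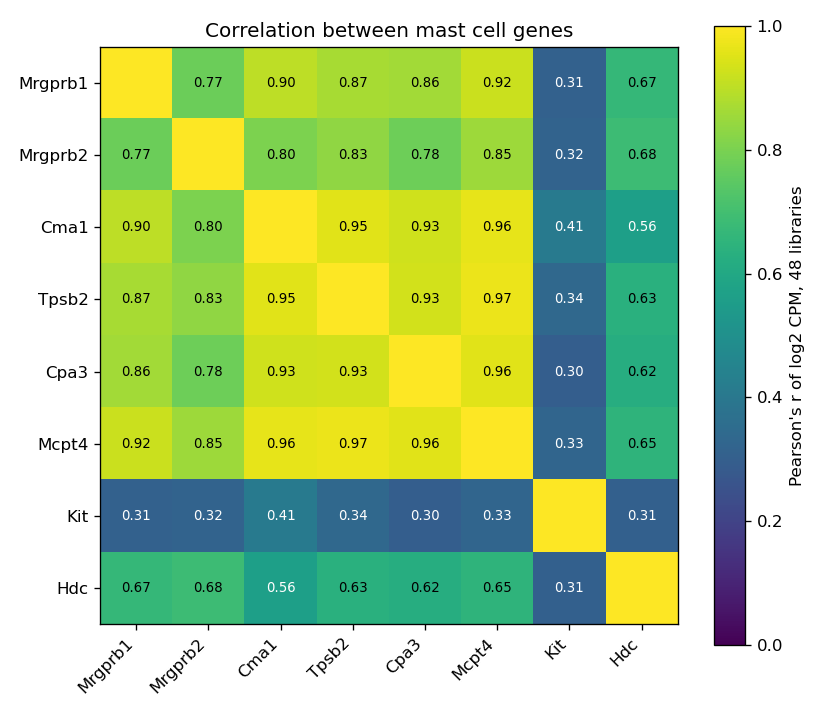
Pearson's r of log2 CPM over 48 libraries for each pair of the 8 genes, with the value printed in each cell and coloured from 0 to 1. The 4 proteases and the 2 Mrgprb genes form a block at 0.77 to 0.97, Hdc lies at 0.56 to 0.68 to them and Kit at 0.30 to 0.41.

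The pattern was the same once the mean of each diet and time was taken out. The residuals of the proteases correlated at 0.93 to 0.97, those of the Mrgprb genes with the proteases at 0.75 to 0.90, those of Hdc with the 6 genes at 0.43 to 0.62 and those of Kit at 0.25 to 0.42. Within each diet the values of Kit differed. Its r with Mcpt4 was 0.61 over the 24 ad-lib libraries and 0.21 over the 24 TAN libraries, and with Mrgprb1 0.70 and 0.15. For Hdc the order was the opposite, 0.32 and 0.74 with Mcpt4. These differences between the diets were not tested.

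**Figure D3:**
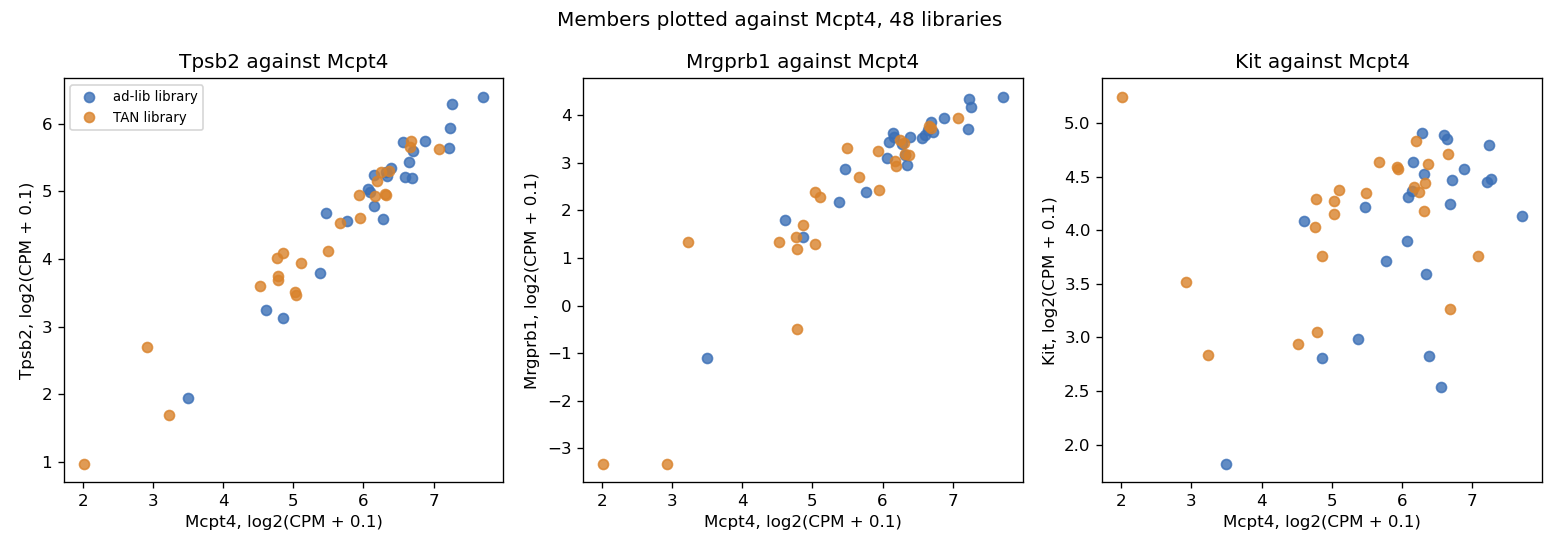
Tpsb2, Mrgprb1 and Kit against Mcpt4 in the 48 libraries (ad-lib in blue, TAN in orange), all as log2 of CPM plus 0.1. Tpsb2 follows Mcpt4 over the whole range (r of log2 CPM 0.97), Mrgprb1 follows it down to 2 TAN libraries with no count (0.92), and Kit is scattered, with a TAN library highest in Kit and lowest in Mcpt4 (0.33).

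Outside the 8 genes, those whose log2 CPM was most like the mean of the members over the 48 libraries were, in order, Cyp11a1 (r = 0.88), Mmrn1 (0.87), Cyp1b1 (0.86), Ms4a8a (0.86), Tph1 (0.83), Ms4a2 (0.83), Msr1 (0.83), Lyve1 (0.83), Slc6a4 (0.81) and Slc11a1 (0.81), among 19977 genes. Cyp11a1, Tph1, Ms4a2 and Slc6a4 are known mast cell transcripts, for steroid synthesis, serotonin synthesis, the IgE receptor and serotonin uptake. Msr1 and Lyve1 are known from macrophages, and Lyve1 and Mmrn1 from lymphatic endothelium. On the residuals from the group means Ear2 (0.80), Fxyd6 (0.79), Serinc3 (0.79), Fcer1a (0.78) and Atp8b5 (0.77) entered the 10 most alike beside Cyp11a1, Ms4a8a, Cyp1b1, Mmrn1 and Tph1. Against Mrgprb1 alone the most alike genes outside the members were Slc6a4 (0.86), Mmrn1 (0.85), Cd300ld and Ptpro (both 0.84), Fcer1a (0.82), Pilra (0.82), Cyp11a1 (0.82), Ms4a8a (0.81), Clca3a1 (0.79) and Gpm6a (0.78). Of the members themselves Hdc ranked 44 and Kit 994 by likeness to the mean of the 8 genes, which includes them.

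Markers of other cells and library quality varied along with these genes. The summed CPM of 8 macrophage genes correlated with that of the 4 proteases at r = 0.62, 7 neutrophil genes at 0.69, 10 lymphocyte genes at 0.38, 9 skeletal muscle genes at -0.14, 8 fibroblast genes at 0.27 and 8 adipocyte genes at -0.05, each over 48 libraries. The share of counts on mitochondrially encoded genes, 3.41% to 11.9%, correlated with it at -0.61, the number of genes with a count at 0.38 and the total count at 0.11. The libraries with the lowest protease sums differed among themselves in these measures. TAN replicate 4 at 12:00 a.m. and ad-lib replicate 3 at 4:00 a.m. held 14.6 and 10.9 CPM over the lymphocyte genes, near the lowest value of 9.24, with 11.9% and 8.92% mitochondrial counts. TAN replicates 1 and 2 at 8:00 p.m. held 2346 and 2670 CPM over the lymphocyte genes, with 15271 and 15866 genes with a count. The part of these measures in the spread was not tested.

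The question of the study's design was whether TAN feeding changed expression in sWAT at each time of day. For each time, calls required both a log2 difference of TAN from ad-lib beyond 1 and an adjusted p under 0.05 (Benjamini-Hochberg, edgeR's quasi-likelihood test, 19977 genes). None of the 8 mast cell genes was called at any of the 6 time points by this test. At 8:00 a.m., 0 of 8 were called where 0.015% of all genes were, and at 12:00 p.m. 0 of 8 against 0.0901%. At 4:00 p.m., 0 of 8 were called where 10.4% of all genes were, and at 8:00 p.m. 0 of 8 against 7.03%. At 12:00 a.m. it was 0 of 8 against 0.135% and at 4:00 a.m. 0 of 8 against 0.0% of all genes. At an unadjusted p under 0.05 there were 0, 0, 1, 3, 1 and 0 members in this order of times. DESeq2 called 1 member at 4:00 p.m. (Kit) and 1 at 8:00 p.m. (Cpa3), and limma voom 4 at 8:00 p.m. (Mcpt4, Cpa3, Mrgprb2 and Hdc), with 0 at the other times. The shares of all genes under the unadjusted p and by these tools are not given here. These counts are therefore not read as a result about the members.

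Averaged over the 6 time points, 7 of the 8 genes had lower fitted means in TAN sWAT, as had 60.7% of all genes. For this mean a call required an adjusted p under 0.05 alone, with no limit on the fold change. Cpa3, the carboxypeptidase of the granule, fell by 0.89 on the log2 scale (SE 0.24, adjusted p = 0.0259), the only member of the 8 called where 5.42% of all genes were called and 2.74% were called lower. The other protease and Mrgprb genes had log2 fold changes of -0.68 to -0.86 with adjusted p of 0.122 to 0.204. These were Mcpt4 at -0.76 (SE 0.30), Tpsb2 at -0.71 (SE 0.29), Cma1 at -0.68 (SE 0.28), Mrgprb1 at -0.80 (SE 0.37) and Mrgprb2 at -0.86 (SE 0.40). Hdc was at -0.39 (SE 0.35) and Kit at 0.01 (SE 0.16). The median over the 8 genes was -0.73, against -0.08 over all genes tested. The proteases and Mrgprb genes varied together across the libraries. Counts and medians over the 8 genes, here and at each time, are thus not over independent observations. Cpa3 remained called in each of 48 fits that left out 1 library and under each alternative that was tried, with adjusted p of 0.00254 to 0.0475. Without TAN replicate 3 at 8:00 p.m. 4 members were called, Mcpt4 (-1.04), Tpsb2 (-0.92), Cma1 (-0.90) and Cpa3 (-1.10). This library was the highest of its group in these genes, so that leaving it out lowers the TAN mean. The share of all genes called in that fit is not given here. The share of mitochondrial counts, a measure that varied with the proteases, had a median of 5.20% in the ad-lib and 6.54% in the TAN libraries. Markers of other immune cells were lower too in the mean over times. All 8 macrophage genes had lower fitted means in TAN, with a median log2 fold change of -0.46 and 1 called (Csf1r, -0.47, SE 0.13, adjusted p = 0.0351). The 6 neutrophil genes tested were all lower with a median of -0.51, and the 10 lymphocyte genes with a median of -0.66, with 0 called in either list. The part of these measures in the lower level of the proteases was not tested.

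**Figure D4:**
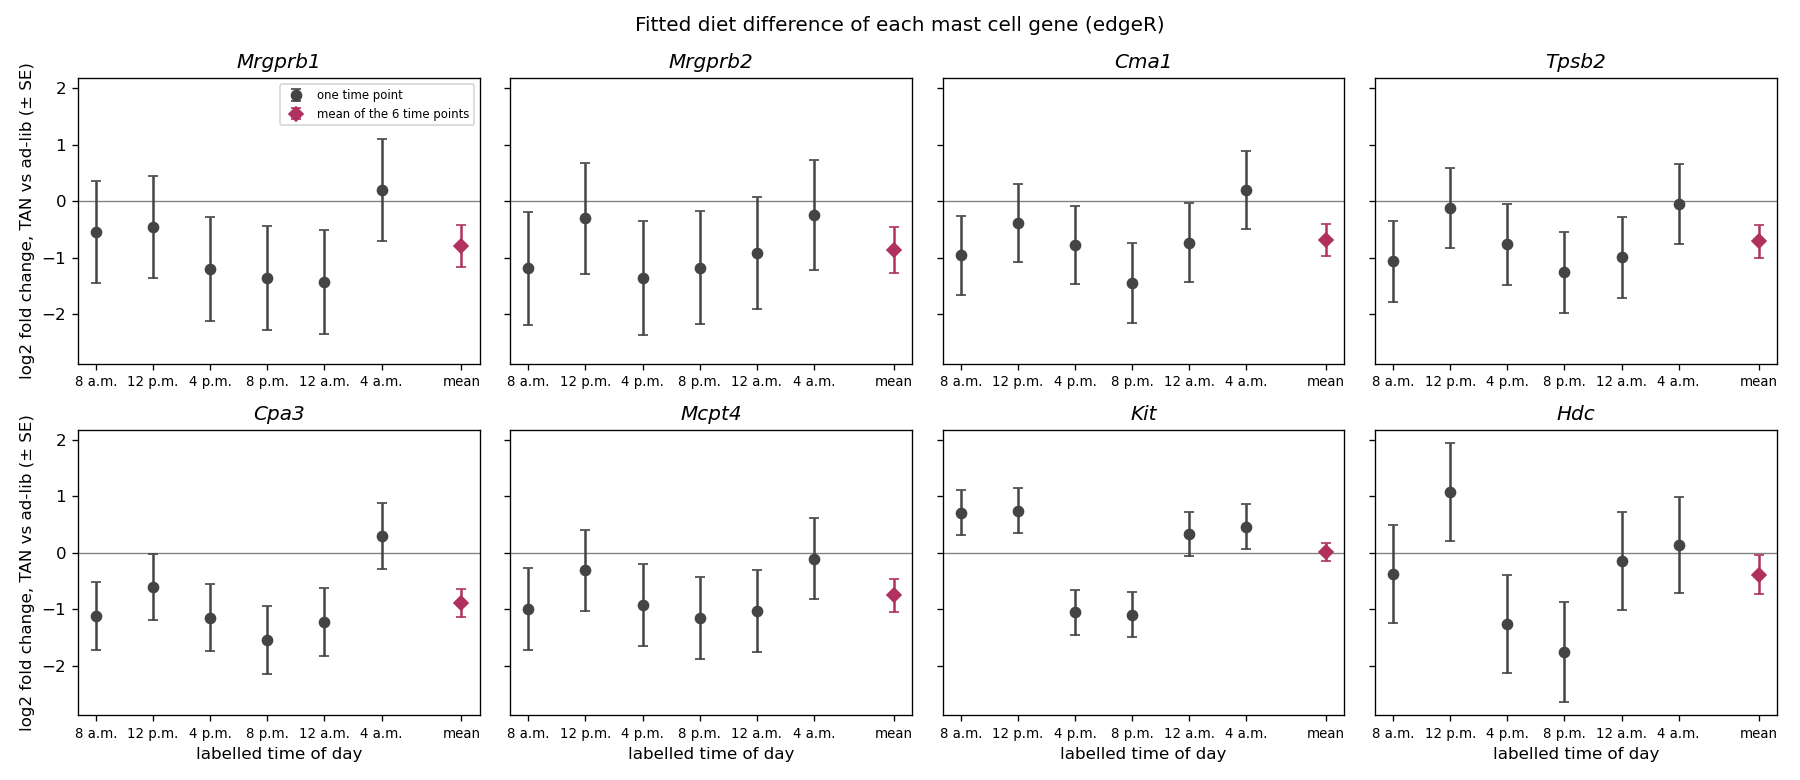
Fitted log2 fold change of each gene, TAN against ad-lib, with its standard error, at each labelled time of day (circles, 4 libraries of each diet) and as the mean over the 6 time points (diamonds). Cpa3 lies at -0.61 to -1.55 at 5 of the times and at 0.30 at 4:00 a.m., whereas Kit lies near -1.1 at 4:00 and 8:00 p.m. and at 0.33 to 0.74 at the other 4 times, so that its mean is 0.01.

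At 8:00 a.m. 7 of 8 genes had lower fitted means in TAN sWAT, against 49.1% of all genes. Cpa3 was at 28.2, 9.91, 72.6 and 48.3 CPM in the ad-lib libraries and at 11.1, 12.0, 28.7 and 21.4 CPM in the TAN libraries. The groups overlapped, with both the lowest and the highest value in ad-lib libraries. Its log2 fold change was -1.12 (SE 0.60, adjusted p = 0.774). Mcpt4, the main chymase of mouse connective tissue mast cells, was at 41.5, 24.3, 209 and 94.2 CPM in ad-lib and 27.4, 34.4, 79.1 and 44.9 CPM in TAN libraries. Again both the lowest and the highest library were ad-lib. The spread of the ad-lib group here exceeded the difference of the means, 92.4 ± 83.5 CPM against 46.5 ± 22.9 (SD, n = 4).

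At 12:00 p.m. the diets were closer, with lower fitted means in TAN for 6 of 8 genes against 47.3% of all genes. In 0 of 8 genes did all TAN libraries lie below all ad-lib libraries, against 1.54% of all genes. Cpa3 was at 42.2, 59.6, 13.3 and 34.1 CPM in ad-lib and at 30.8, 21.0, 25.7 and 20.3 CPM in TAN libraries, a log2 fold change of -0.61 (SE 0.59, adjusted p = 0.922). Ad-lib replicate 3 was below each of the TAN libraries. The 4 proteases and both Mrgprb genes had log2 fold changes of -0.61 to -0.11 at this time, each within or close to its SE.

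At 4:00 p.m. all 8 genes had lower fitted means in TAN sWAT, as had 53.6% of all genes, with a median log2 fold change of -1.10 against -0.09 over all genes. Cpa3 was at 41.0, 26.9, 43.9 and 29.7 CPM in ad-lib and at 13.9, 10.8, 29.1 and 10.05 CPM in TAN libraries. The 3 lower TAN libraries lay below each ad-lib library and the other TAN library, replicate 3, lay among them. The log2 fold change was -1.15 (SE 0.60, adjusted p = 0.172). Mcpt4 showed the same arrangement, with 105, 79.6, 100 and 71.2 CPM in ad-lib and 27.5, 29.0, 103 and 27.1 CPM in TAN libraries, and so did Mrgprb1, with 12.3, 8.86, 12.7 and 11.5 CPM against 0.610, 3.13, 13.2 and 2.62. In both genes TAN replicate 3 stood at the upper end of the ad-lib range or above it. Their log2 fold changes were -0.93 (SE 0.73, adjusted p = 0.390) and -1.20 (SE 0.92, adjusted p = 0.378).

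The 4:00 p.m. groups also differed in other measures. The lymphocyte genes summed to 915 to 1560 CPM in the ad-lib libraries and to 9.24 to 338 in the TAN libraries, and the macrophage genes to 1453 to 2304 and 415 to 1872 CPM. Of the 6 neutrophil genes tested 5 had lower fitted means in TAN, with a median log2 fold change of -2.72 and 3 called lower. Of the 8 adipocyte genes 0 were lower, with a median of 0.97 and 1 called higher, where 10.4% of all genes were called. Genes with a count numbered 21185 to 22587 in the ad-lib and 15693 to 20089 in the TAN libraries. With the lymphocyte genes as a covariate the log2 fold change of Mcpt4 was -0.29 (edgeR, adjusted p = 0.897) and that of Cpa3 -0.79 (adjusted p = 0.609). The lymphocyte sums of the diets did not overlap at this time, so that diet and lymphocyte content cannot be told apart there. In a fit of the 8 libraries alone Cpa3 (-1.22, adjusted p = 0.0223) and Kit (-1.12, adjusted p = 0.0109) were called. The share of all genes called in that fit is not given here, and in the fit of all libraries it was 10.4%.

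At 8:00 p.m. all 8 genes again had lower fitted means in TAN sWAT, as had 54.3% of all genes, with a median of -1.31 against -0.10. All TAN libraries lay below all ad-lib libraries in 0 of 8 genes, against 11.6% of all genes, and above them in 0 of 8, against 4.55%. Cpa3 was at 46.4, 61.5, 25.7 and 20.5 CPM in ad-lib and at 3.80, 3.97, 35.7 and 9.13 CPM in TAN libraries. TAN replicates 1, 2 and 4 lay below each ad-lib library, and replicate 3 lay within the ad-lib range. The log2 fold change was -1.55 (SE 0.60, adjusted p = 0.0809). Tpsb2, the tryptase gene, was at 53.3, 60.9, 31.7 and 23.5 CPM in ad-lib and 6.38, 3.13, 49.3 and 12.0 CPM in TAN libraries, and Cma1, a second chymase, at 57.5, 59.9, 30.5 and 22.1 CPM and 3.44, 6.38, 43.4 and 9.13 CPM. TAN replicate 3 was the one library apart in both. Mrgprb2, the receptor for cationic peptides and drugs, was at 2.73, 4.77, 1.32 and 1.48 CPM in ad-lib libraries, and at 0, 0, 3.03 and 1.52 CPM in TAN libraries.

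The 8:00 p.m. difference rested on which TAN libraries were included. Without TAN replicate 3, Mcpt4 (-2.89, adjusted p = 0.0207), Cma1 (-2.75, adjusted p = 0.0244), Tpsb2 (-2.57, adjusted p = 0.0343) and Cpa3 (-2.78, adjusted p = 0.0093) were called by edgeR, and without TAN replicate 4 only Hdc was (-3.00, adjusted p = 0.0371). TAN replicate 3 was the highest of its group in these proteases and TAN replicate 4 in Hdc. Leaving out either thus lowers the TAN mean, and the shares of all genes called in these fits are not given here. Without the 4 libraries that had fewer than 17000 genes with a count, which include TAN replicates 1 and 2 of this time, the log2 fold change of Cpa3 was -0.73 and that of Mcpt4 -0.25. Genes with a count numbered 15271 to 18114 in the TAN libraries and 21364 to 22595 in the ad-lib libraries at this time. The share of this in the difference was not tested.

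At 12:00 a.m. 7 of 8 genes had lower fitted means in TAN, against 57.4% of all genes. All TAN libraries lay below all ad-lib libraries in 0 of 8 genes, against 5.54% of all genes, and above them in 0 of 8, against 3.59%. Cpa3 was at 25.5, 30.5, 18.0 and 39.7 CPM in ad-lib and at 9.46, 27.6, 7.51 and 3.94 CPM in TAN libraries. The TAN libraries other than replicate 2 lay below the ad-lib range. The log2 fold change was -1.23 (SE 0.60, adjusted p = 0.279). Mrgprb1, the neighbour of Mrgprb2 in the same receptor family, was at 10.4, 8.46, 7.14 and 14.4 CPM in ad-lib and at 5.11, 7.47, 2.35 and 0 CPM in TAN libraries. In both genes 3 TAN libraries were lower than each ad-lib library.

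At 4:00 a.m. the lower level in TAN sWAT was not seen. Cpa3 was at 38.8, 35.0, 6.56 and 37.8 CPM in ad-lib and at 32.3, 32.3, 34.1 and 46.5 CPM in TAN libraries, a log2 fold change of 0.30 (SE 0.59, adjusted p = 0.9995). The lowest value was ad-lib replicate 3 and the highest TAN replicate 4, with the other 6 libraries between 32.3 and 38.8 CPM. Only 3 of 8 genes had lower fitted means in TAN, against 49.6% of all genes, and the median was 0.16. All TAN libraries lay above all ad-lib libraries in 0 of 8 genes, against 1.91% of all genes. Whether the TAN effect differed between the time points was tested in the same fit, and for the 7 members other than Kit the adjusted p of that test was 0.438 to 0.965.

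Kit, the receptor for stem cell factor on which mast cells depend and which melanocytes and other cells also carry, behaved differently from the granule genes. Its TAN effect differed between the time points (edgeR F test, adjusted p = 0.0351), 1 member of 8 called where 8.98% of all genes were. At 4:00 p.m. Kit was at 22.1, 22.9, 28.7 and 24.7 CPM in ad-lib and at 8.18, 13.4, 9.53 and 16.2 CPM in TAN libraries. All 4 TAN libraries lay below all 4 ad-lib libraries, as did those of 17.8% of all genes at this time, and Kit was the only member of which this was true. The log2 fold change was -1.06 (SE 0.40, adjusted p = 0.0626). At 8:00 p.m. it was at 23.7, 27.6, 19.7 and 13.04 CPM in ad-lib and 11.3, 7.02, 13.4 and 7.55 CPM in TAN libraries, with an overlap of 1 library on each side. The log2 fold change was -1.10 (SE 0.40, adjusted p = 0.0635).

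At the other times the sign was the reverse. At 8:00 a.m. Kit was at 7.81, 16.9, 17.4 and 5.70 CPM in ad-lib and at 19.4, 20.7, 18.0 and 20.2 CPM in TAN libraries. All 4 TAN libraries lay above all 4 ad-lib libraries, as did those of 2.03% of all genes, with a log2 fold change of 0.71 (SE 0.40, adjusted p = 0.796). At 12:00 p.m. the TAN libraries were at 24.4, 23.6, 21.1 and 24.8 CPM and the ad-lib libraries at 6.997, 21.8, 6.92 and 20.5 CPM, where the groups overlapped by a narrow margin. The log2 fold changes were 0.74 (SE 0.40) at this time, 0.33 (SE 0.40) at 12:00 a.m. and 0.46 (SE 0.40) at 4:00 a.m., with adjusted p of 0.703 to 0.9995. Kit was thus lower in TAN at 2 of 6 times by fitted mean and higher at the other 4.

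The call for Kit was not stable. It was kept in 40 of 48 fits that left out 1 library, with adjusted p up to 0.0605, and it was lost without ad-lib replicates 3 or 4 or TAN replicates 1 or 3 at 4:00 p.m., without ad-lib replicates 1, 2 or 3 at 8:00 p.m., and without TAN replicate 4 at 8:00 a.m. It was also lost without the 4 libraries of fewer than 17000 genes with a count (adjusted p = 0.107). With the lymphocyte genes as a covariate it was lost too (adjusted p = 0.0584). Under that covariate the log2 fold change at 4:00 p.m., when the lymphocyte sums of the diets did not overlap, was -0.31. The 10 genes most like Kit over the 48 libraries began with Apobec1 (r = 0.78), Foxred2 (0.76), Cxadr (0.76), Etnk1 (0.72), Gm43914 (0.71) and Siglec1 (0.71), and held no gene of the mast cell lists. The melanocyte gene Dct had a count in 24 ad-lib and 23 TAN libraries, and the 5 melanocyte genes summed to 3.79 to 16.4 CPM.

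The endothelial markers shared only part of the pattern of Kit. At 8:00 p.m. all 4 endothelial genes had lower fitted means in TAN sWAT, with a median log2 fold change of -1.18. Of these Kdr, a receptor for vascular growth factor (-1.20, SE 0.38, adjusted p = 0.0367), and Cdh5, the cadherin of endothelial junctions (-1.23, SE 0.42, adjusted p = 0.0488), were called, where 7.03% of all genes were. The endothelial genes summed to 334 to 478 CPM in the ad-lib and to 134 to 252 CPM in the TAN libraries at this time, so that the groups did not overlap. At 4:00 p.m. the sums overlapped, at 485 to 588 and 249 to 494 CPM, and the median log2 fold change was -0.23 against -1.06 for Kit. At 12:00 a.m. all 4 had lower fitted means in TAN (median -0.28), whereas Kit was at 0.33. At the other times, when Kit was higher in TAN, 0 of 4 were lower at 8:00 a.m., 2 of 4 at 12:00 p.m. and 0 of 4 at 4:00 a.m. All 4 endothelial genes were called for variation over time in TAN, as were 23.0% of all genes. Pecam1 was also called for the difference of the TAN effect between times (adjusted p = 0.0203), 1 of 4 where 8.98% of all genes were. Over the 48 libraries the r of Kit was 0.32 with the summed endothelial genes, -0.06 with the melanocyte genes, 0.47 with the lymphocyte genes, 0.45 with the neutrophil genes and 0.51 with the genes of group 2 innate lymphoid cells. Its r with the number of genes with a count was 0.52, and the part of these measures in its pattern was not tested.

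Hdc, which encodes histidine decarboxylase, had low counts, at most 108 in a library. At 12:00 p.m. it was at 1.55, 0.988, 1.29 and 1.10 CPM in ad-lib and at 2.96, 1.93, 2.95 and 2.59 CPM in TAN libraries. All TAN libraries lay above all ad-lib libraries, as did those of 3.3% of all genes, with a log2 fold change of 1.08 (SE 0.87, adjusted p = 0.874). At 8:00 p.m. the order was the opposite, with 3.11, 4.14, 4.47 and 2.61 CPM in ad-lib and 0, 0, 1.33 and 2.93 CPM in TAN libraries. The log2 fold change there was -1.76 (SE 0.89, adjusted p = 0.187), and 1 TAN library overlapped the ad-lib range.

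Within each diet, variation over the 6 times was tested by an F test in the same edgeR fit. In ad-lib sWAT 0 of 8 members were called against 0.0551% of all genes, with adjusted p of 0.832 to 0.99997, with 0 at an unadjusted p under 0.05 and 0 by DESeq2 and limma voom. In TAN sWAT 1 of 8 was called against 23.0% of all genes, and this was Kit (adjusted p = 0.0336). Kit averaged 25.8 ± 9.31 CPM at 12:00 a.m., its highest group of the 12, 23.5 ± 1.66 at 12:00 p.m. and 23.0 ± 2.52 at 4:00 a.m., against 11.8 ± 3.68 at 4:00 p.m. and 9.83 ± 3.06 at 8:00 p.m., its lowest (SD, n = 4). The call was lost without any of TAN replicate 1 at 4:00 p.m., TAN replicates 1 or 2 at 8:00 p.m., TAN replicates 2 or 4 at 12:00 a.m., and the 4 libraries of fewer than 17000 genes with a count (adjusted p = 0.201).

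In the order of the 12 group means, ad-lib groups filled 5 of the 6 highest places for the 4 proteases and both Mrgprb genes. Mcpt4 was highest in ad-lib sWAT at 8:00 p.m. with 97.6 ± 44.6 CPM and lowest in TAN sWAT at 12:00 a.m. with 35.6 ± 28.5 CPM (SD, n = 4), a 2.74-fold range. For Mrgprb1 the range was 3.42-fold between the same groups, from 12.8 ± 6.36 to 3.73 ± 3.25 CPM. Cpa3 ran from 39.8 ± 27.0 CPM in ad-lib sWAT at 8:00 a.m. to 12.1 ± 10.6 in TAN sWAT at 12:00 a.m. In each of the 8 genes, 0 of the 11 neighbouring places in the order were separated by more than the larger SD of the 2 groups.

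Beyond the 8 members, 30 of 32 further genes on lists of mast cell biology passed the filter. At 4:00 p.m. 6 of 30 were called lower and 0 higher, where 10.4% of all genes were called. At 8:00 p.m. 1 of 30 was called lower against 7.03% of all genes, and at 12:00 a.m. 1 of 30 against 0.135%. At the other times 0 of 30 were called. The median log2 fold change of the 30 genes came to -1.01 at 4:00 p.m. against -0.09 over all genes, -0.40 against -0.10 at 8:00 p.m. and -0.51 against -0.14 at 12:00 a.m. For the mean over time points it was -0.38 against -0.08. Many of these genes, such as Srgn, Cd63, Kitl and Il33, are expressed widely in other cells.

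Among the IgE receptor genes, 1 of 3 was called, Ms4a2 at 8:00 p.m., when 7.03% of all genes were (2.68 ± 1.24 CPM in ad-lib and 0.149 ± 0.201 in TAN, n = 4, log2 fold change -4.13, SE 1.08, adjusted p = 0.0144). Fcer1a and Fcer1g were called at none of the 6 times. At 4:00 p.m., when 10.4% of all genes were called, 1 of the 6 further granule genes was, the tryptase gene Tpsab1, which had 0 counts in all 4 TAN libraries against 4 to 19 counts in ad-lib libraries. Against a floor of 3 counts per library it was at least 2.21-fold lower. Averaged over the times Tpsab1 also fell by 2.32 on the log2 scale (SE 0.57, adjusted p = 0.0151), a fitted value that depends on the prior count where TAN libraries had 0 counts. It was 1 of these 6 granule genes called for the mean, where 5.42% of all genes were.

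At 4:00 p.m., where 10.4% of all genes were called, 1 of 4 genes for amines and 1 of 4 for lipid mediators were. The first was Slc18a2, which loads histamine and serotonin into granules (5.27 ± 1.33 CPM in ad-lib and 1.94 ± 0.978 in TAN, log2 fold change -1.45, adjusted p = 0.0458). Hpgds, which makes prostaglandin D, was called at the same time (14.6 ± 1.22 and 4.92 ± 2.31 CPM, -1.57, adjusted p = 0.0183). Ltc4s, which makes leukotriene C, rose by 0.37 on the log2 scale over the mean of the times (SE 0.11, adjusted p = 0.0445). It was 1 of the 4 lipid mediator genes called for the mean, where 5.42% of all genes were. Of 3 transcription factor genes, 1 was called at 4:00 p.m. and 1 for the mean, beside the same shares of all genes. Gata1 had 0 counts in the TAN libraries at 4:00 p.m. against 6 to 39 in ad-lib libraries, at least 6.36-fold lower. Its low counts were erratic, and at 8:00 p.m. they ran from 0 to 133 in TAN and from 1 to 20 in ad-lib libraries. Mitf, the mast cell and melanocyte factor, fell by 0.35 over the mean of the times (SE 0.11, adjusted p = 0.0439).

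Of 5 growth and cytokine signals 2 were called at 4:00 p.m., where 10.4% of all genes were. These were Il33, the alarmin that acts on mast cells, and Csf2rb, a shared cytokine receptor chain. Il33 was at 34.6 ± 3.47 CPM in ad-lib and 8.34 ± 5.31 in TAN (log2 fold change -2.05, adjusted p = 0.0192), and Csf2rb at 66.7 ± 20.03 and 19.1 ± 8.30 CPM (-1.81, adjusted p = 0.0182). Il1rl1, the receptor for Il33, was called at 12:00 a.m. (7.85 ± 2.01 and 2.28 ± 0.990 CPM, -1.78, SE 0.38, adjusted p = 0.0299) and for the mean of the times (-0.52, SE 0.15, adjusted p = 0.0340). It was 1 of 5 called in each, where 0.135% of all genes were at 12:00 a.m. and 5.42% for the mean. Of Adora3, Cyp11a1, Enpp3, Rab27b and Cd63, 0 of 5 were called at a single time, against 10.4% of all genes at 4:00 p.m. and fewer at the other times. At 4:00 p.m., where most of these calls lay, the lymphocyte genes were also lower, as given above.

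In the Mrgpr receptor family, 4 of 18 further genes passed the filter and 1 was called, Mrgpre at 4:00 p.m. and lower in TAN, against 10.4% of all genes at that time. Mrgprb3, Mrgprb4, Mrgprb5, Mrgprb8 and Mrgprb13, the closest relatives of the 2 members, had 0 counts in all 48 libraries, as had Mrgpra6, Mrgpra9 and Mrgprd. A count of 0 allows up to 3 counts. Of the histamine receptors Hrh2 and Hrh4 were called lower at that time against the same 10.4%, Hrh4 with 0 counts in the TAN libraries and at least 4.00-fold lower. None of 3 basophil, 4 melanocyte and 9 skeletal muscle genes tested was called at any single time by edgeR.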

How the data were processed

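Poly-A RNA of mouse sWAT was sequenced in 48 libraries. The authors deposited raw read counts per gene and, per the file headers, mean FPKM for each diet and time. Tools named in the submitters' processing notes include TopHat 1.3.3 and DESeq2 1.20.0, with the builds mm9, mm10 and GRCm38. The authors' methods give DESeq2 for comparisons of conditions, and limma with edgeR for the contrasts of TAN with ad-lib at the same time point. The roles of TopHat and of the builds for these libraries are not given in the sources used here. Total counts were 15636378 to 29913310 per library, and no libraries held identical counts. A gene at 0 is bounded by a floor of 3 counts, which covers counting error only.

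The counts were fitted with edgeR 4.0.16 in R 4.3.3 (filterByExpr with a minimum count of 10, TMM factors, robust quasi-likelihood) in a model of 12 diet and time groups, leaving 19977 of 54532 genes. P-values were adjusted by the Benjamini-Hochberg method over all genes tested. CPM used TMM-scaled library sizes, and log2 CPM a prior count of 2. The fit was tested on simulated data. Contrasts were TAN against ad-lib at each time, the mean over times, its difference between times, and variation over time within each diet. Calls at a single time also needed a log2 difference beyond 1, and the others an adjusted p under 0.05 alone. Columns of the authors' own comparisons were not used. Alternatives were no filter, DESeq2 1.42.0, limma 3.58.1 voom, other size factors, a replicate block, marker covariates, the 8 libraries of a time alone and leaving out each library. Leaving out the 4 libraries with fewer than 17000 genes with a count was chosen after seeing the data. Equal replicate numbers were checked for pairing.

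The members, gene lists and tests were chosen with earlier results of these data known. By rule, names go to all 8 members, to list genes called at a time (of a list with no call, its 3 highest by CPM) and to the 10 genes most like the members or Mrgprb1 by Pearson's r. Other genes and the motifs were named after their values were seen.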

Additional observations from a re-analysis of the deposited data

Results flagged for a closer look

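Kit was called for a TAN effect differing between the time points (edgeR F test, adjusted p = 0.0351), where 8.98% of all genes were. Its fitted means were lower in TAN at 4:00 and 8:00 p.m. and higher at the other times. The call was not stable and was kept in 40 of 48 fits that left out 1 library. It was lost with no filter, with the lymphocyte covariate, and without the 4 libraries of fewer than 17000 genes with a count.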

How the results depend on the processing

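Cpa3 stayed lower in TAN for the mean over times in all fits. At 4:00 p.m. DESeq2 and the muscle covariate each called 1 member (Kit) and the 8 libraries alone 2. At 8:00 p.m. DESeq2 called 1 (Cpa3), limma voom 4 and the skin covariate 1 (Kit). For the difference between times no filter, the lymphocyte covariate and leaving out the 4 libraries of fewer than 17000 genes each called 0, and voom 2 (Kit and Hdc). For variation over time in TAN no filter and leaving out those 4 libraries called 0 and voom 2. The causes were not tested, and the shares of all genes called under these settings are not given here.

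Leaving out 1 library, the counts of members called were 0 to 1 at 4:00 p.m. (1 without ad-lib replicate 3 at 4:00 a.m.), 0 to 4 at 8:00 p.m., 1 to 4 for the mean, 0 to 1 for the difference between times and 0 to 2 for time in TAN. At 8:00 p.m. the same ad-lib library left out gave 1 (Kit). The shares of all genes called in these fits are not given here.

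Among fold changes with no call, the sign turned in voom for Mrgprb2 at 8:00 a.m. (0.13) and 4:00 a.m. (0.0035), Tpsb2 at 12:00 p.m. (0.10) and 4:00 a.m. (0.50) and Mcpt4 at 4:00 a.m. (0.36). It turned for Tpsb2 with the muscle covariate at 12:00 p.m. (0.15) and 4:00 a.m. (0.035) and the lymphocyte covariate at 4:00 a.m. (0.017), and for the mean of Kit with no filter (-0.020). Leaving out 1 library, log2 fold changes at 8:00 a.m. ran from -0.86 to 0.085 for Mrgprb1, -1.59 to 0.10 for Mrgprb2 and -0.82 to 0.049 for Hdc. At 12:00 p.m. they ran from -0.73 to 0.045 for Cma1, -0.45 to 0.16 for Tpsb2 and -0.62 to 0.095 for Mcpt4, and at 12:00 a.m. from -0.82 to 0.21 for Hdc. At 4:00 a.m. they ran from -0.20 to 0.69 for Mrgprb1, -0.54 to 0.070 for Mrgprb2, -0.19 to 0.56 for Cma1, -0.43 to 0.53 for Tpsb2, -0.037 to 0.45 for Cpa3, -0.47 to 0.33 for Mcpt4 and -0.19 to 0.34 for Hdc. The mean of Kit ran from -0.044 to 0.088.

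Same-numbered ad-lib and TAN libraries of a time correlated over 0.1 in 10 of 24 pairs (median -0.013, from -0.59 to 0.84). Differently numbered libraries were not compared, so this check cannot decide whether the numbers pair the samples. The numbers were not taken to pair them. With the replicate block 1 member was called for the mean, 1 for the difference between times and 1 for time in TAN, as without it, and Hdc at 12:00 a.m. turned to 0.18. Mrgprb2 and Hdc, with medians near 2 CPM, have the least precise folds.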
